A study of Homo sapiens with 4 samples.

Results

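The heat shock transcription factors HSF1 and HSF2 and the cytosolic chaperones HSP90AA1, HSP90AB1, HSPA1A, HSPA1B, HSPA4, HSPA8, HSPH1 and HSPB1 were examined in MDA-MB-231 cells, a long-established line from a human breast cancer of the triple-negative kind. These 10 genes were chosen by symbol, and every row of the deposited RNA-seq table that carries one of the symbols was taken. All 10 genes had at least 1 row, and together they had 43 of the 43596 transcripts and were 10 of the 15113 gene symbols in the table. The cells had been treated for 24 h with DMSO, the solvent, or with 10 µM KH-3, a small-molecule inhibitor of the RNA-binding protein HuR, with 2 biological replicates per condition and mRNA libraries made from total RNA. The methods also name a 5 µM KH-3 group, and whether its libraries enter the values below is not known.

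The table gives, for each transcript, 1 mean normalized read count taken over the libraries by the authors. Which libraries enter that mean is not given in the sources used here. The remaining measurements in the table are the authors' own comparison of KH-3 with DMSO, which was not used. The levels below are therefore averages in which treated and untreated cells cannot be told apart, with no spread between replicates and an unknown sequencing depth. No difference between genes could be tested against replicate error, and the order of levels is a description. Levels were compared between genes only after division by transcript length, as mean normalized reads per kb, summed over the listed transcripts of a gene.

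Heat shock proteins are chaperones that help other proteins to fold and keep them from aggregating. HSF1 is the main transcription factor of their stress-induced expression in mammals. It is held inactive partly by the chaperones themselves, and after proteotoxic stress it forms trimers and binds heat shock elements, which are repeats of the unit GAA in alternating orientation. HSP90 matures client proteins such as kinases and steroid receptors, HSP70 proteins bind exposed hydrophobic stretches of unfolded chains, HSP110 proteins release ADP from HSP70, and the small heat shock protein HSPB1 holds unfolded proteins without using ATP. Cancer cells are often described as relying on these chaperones.

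The sequences that separate, or fail to separate, the near-identical members come first, because they limit how each level can be read. HSPA1A and HSPA1B encode the stress-inducible HSP70 and lie beside each other on chromosome 6 (hg38, 31815543 to 31817946 and 31827738 to 31830254, both on the plus strand and each with a single-exon listed transcript). Their coding sequences are both 1926 bases long and differ at 4 bases, an identity of 99.8%. The longest stretch without a difference is 1709 coding bases. The 60 coding bases from 1846 to 1905, counted from the start codon, hold 2 of the 4 differences and are shown with the differing bases in capitals, on the plus strand of chromosome 6, at 31817602 to 31817661 for HSPA1A and at 31829796 to 31829855 for HSPA1B.
HSPA1A: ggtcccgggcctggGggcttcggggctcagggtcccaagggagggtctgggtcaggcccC
HSPA1B: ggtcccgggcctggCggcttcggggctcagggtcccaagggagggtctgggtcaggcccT

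Of the 50-base stretches (50-mers) of the HSPA1A transcript, 75.1% also occur in HSPA1B, and within the coding sequence 93.8% do. The 3′UTRs differ more. None of the 50-mers of the 260-base 3′UTR of HSPA1A occurs in the HSPA1B transcript, whose 3′UTR is 378 bases long. A read from most of the coding sequence thus matches both genes equally well, and reads from the UTRs or across 1 of the 4 coding differences can separate them.

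The HSP90 genes had the highest levels. HSP90AA1, the stress-responsive HSP90α isoform, had 22746 mean normalized reads per kb and was 15th of the 15113 genes. HSP90AB1, the constitutive HSP90β isoform, had 12797 per kb and was 36th. HSP90AA1 was therefore 1.78 times HSP90AB1 on the per-kb scale, a ratio that rests on how short transcripts are counted. With protein-coding transcripts alone the levels per kb were 13060 and 12797, which are almost equal. Together these 2 genes took 77.0% of the summed mean normalized read count of the 10 genes, and the 10 genes took 0.873% of that of the whole table.

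HSP90AA1 lies on the minus strand of chromosome 14 from 102080742 to 102139699. Its leading transcript, ENST00000216281.12, is protein-coding with 11 exons, and its mean normalized read count of 41615 was the 8th highest of all transcripts. A second protein-coding transcript, ENST00000334701.11, which starts further upstream, had 2613. The retained-intron transcripts ENST00000560130.1 and ENST00000556554.1, of 488 and 552 bases, had 2927 and 1941 reads. They are short, so they add 5997 and 3516 reads per kb to the gene against 12316 from the leading transcript. Of their 50-mers, 37.1% and 27.6% occur in no other transcript of GENCODE release 44, so most of their sequence is shared with other transcripts. The other 2 listed transcripts had 241 and 22.3 reads.

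HSP90AB1 lies on chromosome 6 from 44246166 to 44253888 on the plus strand, and its 4 listed transcripts are all protein-coding. ENST00000371646.9 had a mean normalized read count of 23204, ENST00000353801.7 had 7223, ENST00000620073.4 had 1646 and ENST00000371554.2 had 951. These transcripts are 2572 to 2674 bases long, and only 1.80% to 8.11% of the 50-mers of each are its own. The leading transcript took 70.3% of the reads of the gene.

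**Figure D1:**
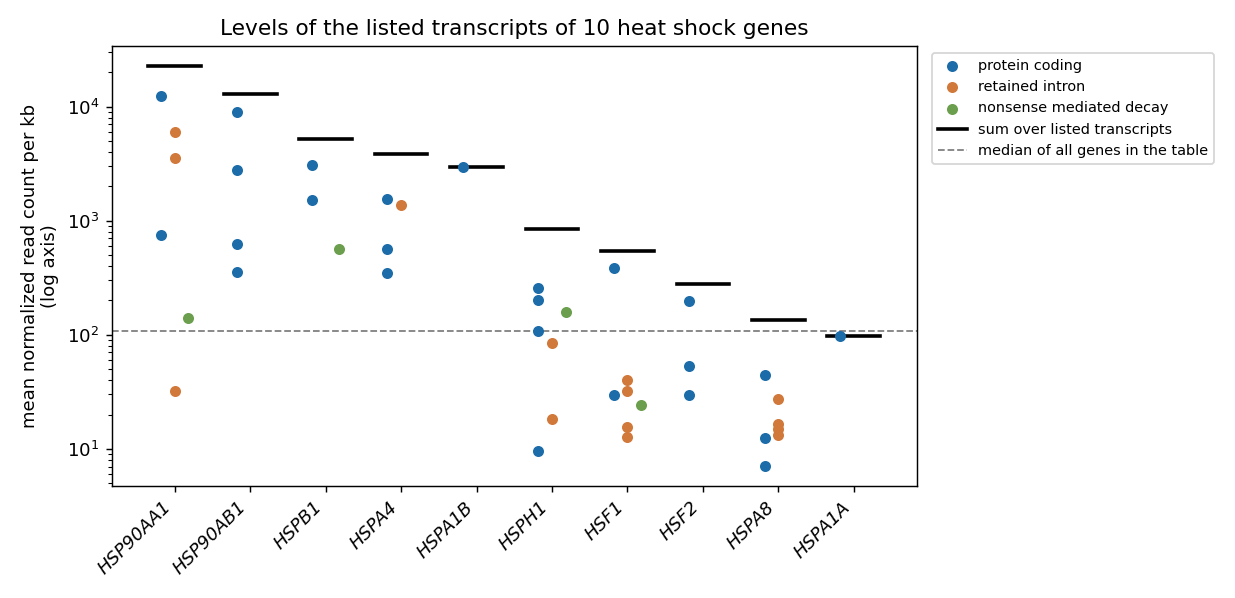
Mean normalized reads per kb (log axis) of each listed transcript of the 10 genes, as the authors' mean over libraries. Points are transcripts coloured by type, black bars are sums over the listed transcripts of a gene, and the dashed line is the median of all genes, 108 per kb; HSP90AA1 is highest at 22746 and HSPA1A lowest at 97.6, the only one of the 10 below the dashed line.

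Of the HSP70 genes, HSPA1B stood far above its near copy. HSPA1B had a mean normalized read count of 7400 on its single listed transcript of 2521 bases, or 2935 per kb, and was 257th among all genes. HSPA1A had 242 on its single listed transcript of 2483 bases, or 97.6 per kb, and was 7897th. The ratio was 30.1, between genes that share 99.8% of their coding bases. Reads from most of the coding sequence match both genes. The sum of the pair, 3033 per kb, hardly depends on how such reads were divided between the 2 listed transcripts. How many reads covered the separating bases is unknown. Release 44 has 2 HSPA1A transcripts, and 1 of them has no row. No 50-mer of the listed HSPA1A transcript is its own, against 26.4% of those of the HSPA1B transcript. Whether the authors mapped to the second HSPA1A transcript was not examined, and reads given to it would not enter the 242. The part of read division in the ratio, between the genes or within HSPA1A, was not tested.

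HSPA8, the constitutive HSC70 that serves in general folding and in clathrin uncoating, had a summed level of 135.8 per kb, rank 6790 among all genes. This was close to the median of all genes, 108 per kb, and HSPA1B was 21.6 times higher. Both readings depend on the way of counting. The HSPA8 level was 63.6 per kb with protein-coding transcripts alone and 27.2 with the leading transcript alone. With 200 bases taken off each length it was 174.7, while HSPA1B stayed between 2935 and 3188. HSPA8 lies on the minus strand of chromosome 11 from 123057489 to 123063230. Its 7 listed transcripts had mean normalized read counts between 7.72 and 62.7, where the lowest value in the table was 7.34 and the median 50.8. The leading one, ENST00000532091.1, is a retained-intron transcript with 62.7, and the 3 protein-coding ones had 32.6, 22.7 and 14.3. Retained-intron transcripts took 59.9% of its reads, against 0% to 16.9% in the other 9 genes.

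The row sets of HSPA8 and HSPB1 were both incomplete against release 44. Release 44 has 24 HSPA8 transcripts, and 17 of them have no row. Among the 17 is ENST00000532636, the longest protein-coding one. Of the 50-mers of that transcript, 36.6% occur in over 10 transcripts, whereas no 50-mer of the longest protein-coding transcript of 8 other members does. The median share was 59.1% for the 17 without a row and 30.8% for the 7 with one. HSPB1 had the same pattern of rows. Of its 19 release 44 transcripts 16 have no row, among them the longest protein-coding one, of whose 50-mers 82.2% occur in over 10 transcripts. The median share was 86.4% for the 16 without a row and 56.9% for the 3 with one. HSF1 had rows for 7 of 14 transcripts, and none of its 50-mers in those 14 occurs in over 10 transcripts. The authors mapped to release 24, and a transcript annotated only later could not have a row. How many of the HSPA8 and HSPB1 transcripts without a row are of that kind was not examined. Such transcripts also enter the shares of 50-mers in over 10 transcripts. The part of repeated matches in the low HSPA8 level was not tested. The levels of HSPA8, HSPB1, HSF1 and the other members are sums over the rows listed, and transcripts without a row do not enter them.

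The HSP110 genes, nucleotide exchange factors of HSP70, were both well above the median gene. HSPA4 (chromosome 5, 133052013 to 133106449, plus strand) had 3826 per kb and was 179th. Its leading transcript ENST00000615899.1 had a mean normalized read count of 3421, the full-length ENST00000304858.6 of 4825 bases had 2710, the retained-intron ENST00000514825.1 of 690 bases had 940 and ENST00000617074.4 had 825. The leading transcript and ENST00000617074.4 are not among the release 44 transcripts, so their sequence was not examined. Counting the leading transcript alone lowered the level of HSPA4 to 1552 per kb.

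HSPH1 (chromosome 13, 31134973 to 31162388, minus strand) had 837 per kb, rank 1419, and HSPA4 was 4.57 times higher. Its reads were spread over 7 transcripts. ENST00000320027.9, of 5191 bases, led with a mean normalized read count of 1332, or 39.4% of the gene, followed by ENST00000630972.2 with 727. Of the 50-mers of the first only 0.0192% are its own, and of those of the second none. Their shares thus rest on how shared reads were divided. The transcript ENST00000602786.5, annotated for nonsense-mediated decay, had 551. With the leading transcript alone the level was 257 per kb, below the 383 of HSF1, so the places of HSPH1 and HSF1 exchange under that count.

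HSPB1, also known as HSP27, is on chromosome 7 from 76302673 to 76304295 on the plus strand. It had 5154 per kb and was 119th. Its 3 listed transcripts had mean normalized read counts of 1609, 1393 and 829. The highest belongs to ENST00000429938.1, a protein-coding transcript of 527 bases, which is shorter than the 909-base ENST00000248553.6. No 50-mer of ENST00000248553.6 is its own, whereas 3.97% of those of ENST00000429938.1 are. The nonsense-mediated decay transcript took 21.6% of the reads of the gene.

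The transcription factors had lower levels than most of the chaperones. HSF1 (chromosome 8, 144291591 to 144314720, plus strand) had 538 per kb, rank 2319, with 75.6% of its reads on the protein-coding ENST00000528838.5 at a mean normalized read count of 821. No 50-mer of that transcript is its own, so its share rests on how shared reads were divided. The other 6 listed transcripts had 18.7 to 74.9 reads, and 4 of them are retained-intron transcripts. HSF2 (chromosome 6, 122399551 to 122433119, plus strand) had 280 per kb, rank 4182. Its 3 listed transcripts are all protein-coding, with 501, 142 and 19.1 reads. HSF1 was 1.92 times HSF2 per kb, and HSP90AA1 was 42.3 times HSF1.

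**Figure D2:**
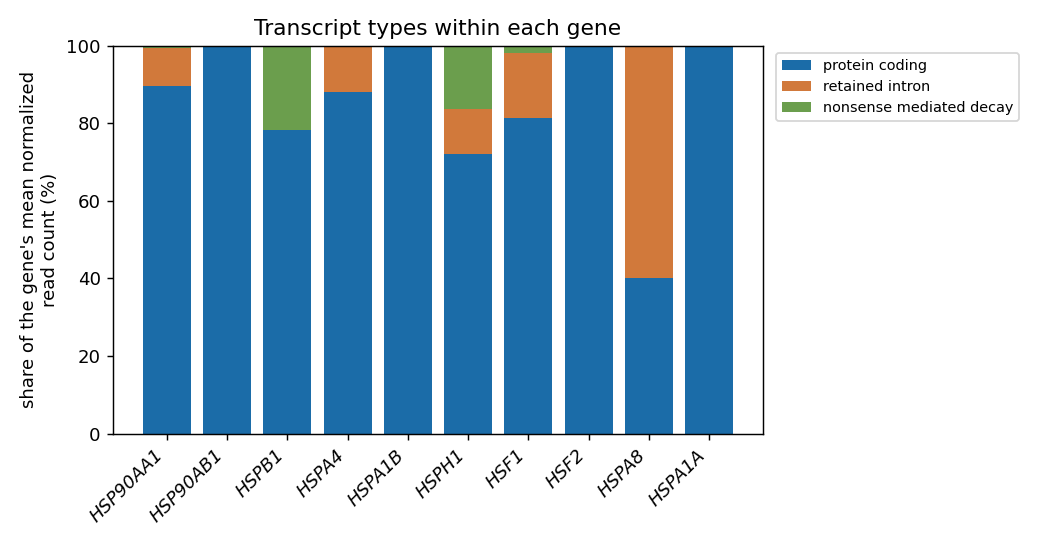
Share of each gene's summed mean normalized read count (%, y axis) by annotated transcript type, for the 10 genes in the order of their level. Protein-coding transcripts took 100% in HSP90AB1, HSPA1B, HSF2 and HSPA1A and 40.1% in HSPA8, the lowest share of the 10.

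Across the 43 transcripts, 25 were protein-coding, 14 were retained-intron and 4 were nonsense-mediated decay transcripts. Their mean normalized read counts ran from 7.72 to 41615 with a median of 374, against a median of 50.8 over all transcripts of the table. In the order of summed levels per kb, HSP90AA1 and HSP90AB1 were followed by HSPB1, HSPA4 and HSPA1B, which lay within 1.76 times of each other, then by HSPH1, HSF1, HSF2, HSPA8 and HSPA1A. The first 3 places held under each of the other ways of counting that were tried. HSPA4 and HSPA1B exchanged places with protein-coding transcripts alone (2464 and 2935 per kb), as did HSPA8 and HSPA1A (63.6 and 97.6 per kb). The order within these pairs thus depended on the way of counting.

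Sequence shared with other genes was also measured for the remaining members, on the strand of the transcript. HSF1, HSPA4 and HSPH1 had no 50-mer in common with a transcript of another gene. With both strands searched the share was 1.59% for HSF1 and still 0% for HSPA4 and HSPH1. For HSP90AB1 the share was 16.6%, for HSP90AA1 12.6%, for HSPA8 11.7%, for HSPB1 6.33% and for HSF2 5.71%. Heat shock genes have many processed pseudogenes, which are reverse-transcribed copies without introns. The noncoding genes that shared 50-mers were not all pseudogenes. They included the small nucleolar RNA genes SNORD14C and SNORD14D for HSPA8 and long noncoding RNA genes such as LINC01285 for HSP90AA1. When only protein-coding genes were searched, the share was 0% for HSP90AB1, HSPA8, HSPB1 and HSF2 and 0.204% for HSP90AA1.

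Pseudogenes with rows of their own had values that were low beside the HSP90 genes and HSPB1, but not always beside HSPA8. HSP90AA2P on chromosome 11, with 20.3% of its own 50-mers in HSP90AA1, had a mean normalized read count of 37.7, and HSPB1P1 on chromosome 9, with 47.3% in HSPB1, had 9.56. HSP90AB3P on chromosome 4, named after its value was seen, had 19.3% in HSP90AB1 and a mean normalized read count of 42.8. HSP90AB2P and HSP90AA3P, with 3.79% and 3.45% in their parent genes, had 69.97 and 17.7. Each of these is small beside its parent gene, which had 33024 or more for the HSP90 genes and 3830 for HSPB1, summed over transcripts. HSPA8P9 and HSPA8P8, with 2.80% and 4.86% of their own 50-mers in HSPA8, had 32.7 and 7.75. The value of HSPA8P9 is not small beside HSPA8, which had 173 summed over transcripts and 32.6 on its highest protein-coding transcript. Over the whole list of non-member genes with at least 20% of their own 50-mers in a member, HSP90AA2P and HSPB1P1 were the only ones with a row.

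**Figure D3:**
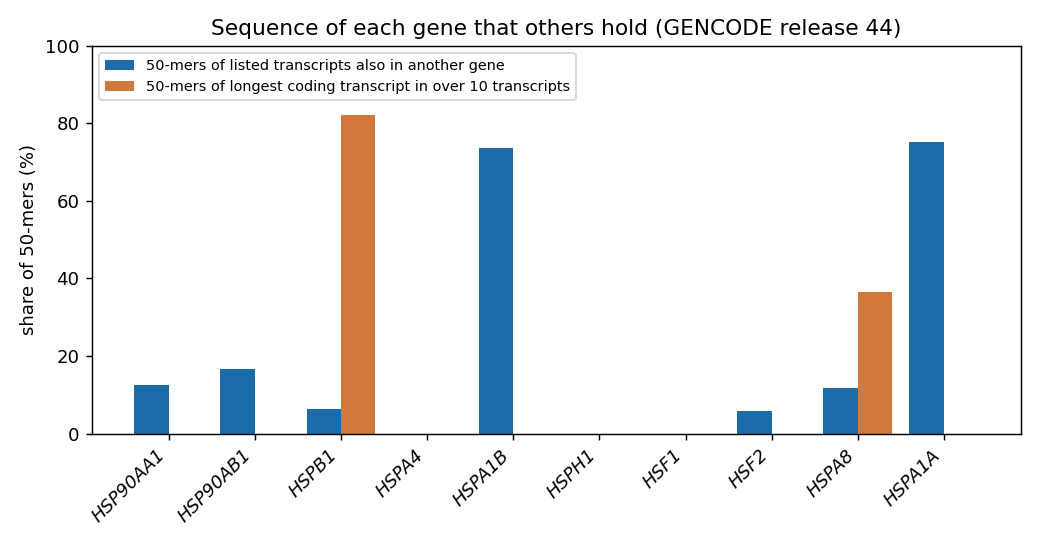
Share of 50-mers (%, y axis) of each gene that occur in transcripts of another gene (blue, listed transcripts) or in over 10 transcripts of any gene (orange, longest protein-coding transcript), in GENCODE release 44. HSPA1A and HSPA1B share 75.1% and 73.6% with other genes, and HSPB1 and HSPA8 reach 82.2% and 36.6% in the orange bars.

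Promoters were searched for heat shock elements in the RefSeq windows of GRCh38.p14, from 250 bases before to 50 after a start. Such windows were found for 9 of the 10 genes, 13 in all. The HSF1 promoter was not analysed here. Matches were GAANNTTC and TTCNNGAA, where N is any base and which read the same on both strands. A longer match, of 3 units, was GAANNTTC followed after 2 bases by another GAA, or its reverse complement, and always contains both shorter ones. A shorter motif occurred in 13.5% of 35116 promoters and in 6 of the 13 member windows, which belong to 6 genes. The 3-unit form occurred in 0.490% of all promoters and in 3 of the 13, those of HSP90AA1, HSP90AB1 and HSPA8. Heat shock elements of these genes are well known, and a match is only a description of the letters.

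The windows are shown because the start sites of HSP90AA1 and HSP90AB1 differ both in their matches and in the reads of the transcripts that begin there. Capitals mark the motif matches, and each sequence is read in the direction of the gene. The HSP90AA1 stretch is chr14:102087085-102087154 on the minus strand, from -110 to -41 bases relative to the start. The HSP90AB1 stretch is chr6:44247776-44247845 on the plus strand, in an intron of its leading transcript. The HSPA1A and HSPA1B stretches are chr6:31815406-31815475 and chr6:31827602-31827671 on the plus strand. The HSPB1 stretch is chr7:76302460-76302529 on the plus strand. The HSPA8 stretch, of 30 bases, is chr11:123062170-123062199 on the minus strand.
HSP90AA1: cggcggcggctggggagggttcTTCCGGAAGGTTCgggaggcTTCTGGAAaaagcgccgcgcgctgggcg
HSP90AB1: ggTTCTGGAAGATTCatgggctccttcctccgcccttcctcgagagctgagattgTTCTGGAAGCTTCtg
HSPA1A: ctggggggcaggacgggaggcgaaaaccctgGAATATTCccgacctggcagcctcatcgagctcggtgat
HSPA1B: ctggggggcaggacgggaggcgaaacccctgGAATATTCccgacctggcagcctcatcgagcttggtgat
HSPA8: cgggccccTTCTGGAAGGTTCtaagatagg
HSPB1: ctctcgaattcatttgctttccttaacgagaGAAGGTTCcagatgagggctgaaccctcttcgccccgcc

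At HSP90AA1, the start with 3 shorter matches and 1 three-unit match was that of the leading transcript. The 2 listed transcripts beginning within 100 bases of it had a summed mean normalized read count of 43555. The other RefSeq start, with no match, had 2613. At HSP90AB1 the reverse held. The start with 4 shorter and 2 three-unit matches had a single listed transcript with 951 reads, whereas the start with 30427 reads and the one with 1646 had no match in their windows. Only 1.80% to 8.11% of the 50-mers of each HSP90AB1 transcript are its own, so the reads per start rest on how shared reads were divided. HSPA1A and HSPA1B each had 1 match, at -106 to -99 and -105 to -98 bases relative to the start, in promoters whose printed stretches are nearly the same, while their transcripts had 242 and 7400 reads. The HSPA8 window had 4 shorter and 2 three-unit matches, and the 4 listed transcripts beginning within 100 bases summed to 63.8 reads. HSPA4, HSPH1 and HSF2 had no match in their windows. The HSPH1 window lies at the start of ENST00000630972.2, with 727 reads. The leading HSPH1 transcript, with 1332, begins 484 bases further downstream, and its own start was not searched. Nor was that of the leading HSPA4 transcript, which release 44 lacks. The leading HSPA8 and HSPB1 transcripts begin 1710 and 904 bases downstream of the RefSeq starts, and their own starts were not searched either. How shared reads were divided between HSPA1A and HSPA1B, or between the starts of a gene, was not tested.

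**Figure D4:**
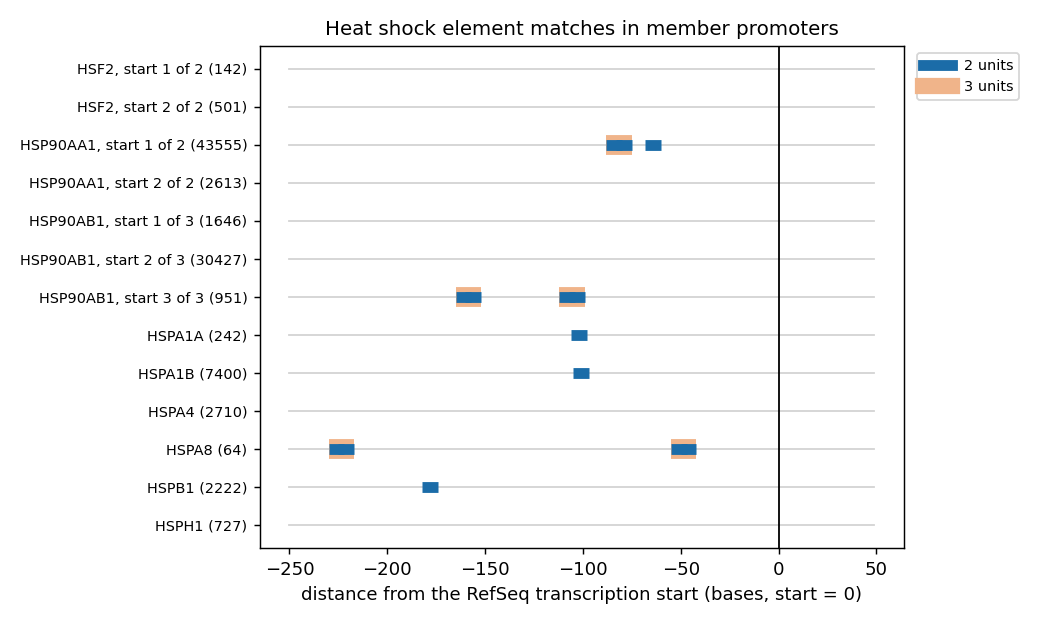
Heat shock element matches in the 13 RefSeq promoter windows of 9 genes, by distance from the start (bases, x axis). Blue bars are the shorter motifs and orange bars the 3-unit form, and the number in parentheses is the summed mean normalized read count of listed transcripts that begin within 100 bases; matches occur at 1 of 2 starts of HSP90AA1 and 1 of 3 of HSP90AB1.

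Because HuR binds AU-rich elements in mRNAs, AUUUA was counted in the 3′UTRs of each gene's highest protein-coding transcript with an annotated 3′UTR in release 44. Of the 10 members 8 had at least 1, or 80%, against 72.8% of 11901 genes of the table. The member 3′UTRs were shorter, with a median of 384 bases against 1254. Per kb of 3′UTR, the median was 3.03 AUUUA for the members and 1.74 for all these genes, a difference that was not tested. HSPH1 had the most, 9 in 2345 bases, followed by HSPA4 with 3 in 2013. HSPA1B, HSF2 and HSPA8 had 2 each, HSPA1A, HSP90AA1 and HSPB1 had 1 each, and HSF1 and HSP90AB1 had 0. Binding of HuR to these sites was not examined.

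A list of 39 further genes of the heat shock system was compared by level, and 33 of them had a row. Their median was 677 per kb, beside 1886 for the 10 members and 108 for all genes. The highest 5 were HSP90B1, the HSP90 of the endoplasmic reticulum (10447 per kb), the mitochondrial HSP70 HSPA9 (6116), the mitochondrial chaperonin HSPD1 (5714), the polyubiquitin gene UBB (4757) and the HSP40 co-chaperone DNAJA1 (4597). The lowest 5 with a row were the small heat shock protein gene HSPB8 (239), HSPA2 (77.5), HSPA12A (29.5), the strictly stress-inducible HSPA6 (23.2) and HSPA1L (15.0). HSPA12B, HSPB2, HSPB3, HSPB6, HSPB7 and CRYAB had no row.

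**Figure D5:**
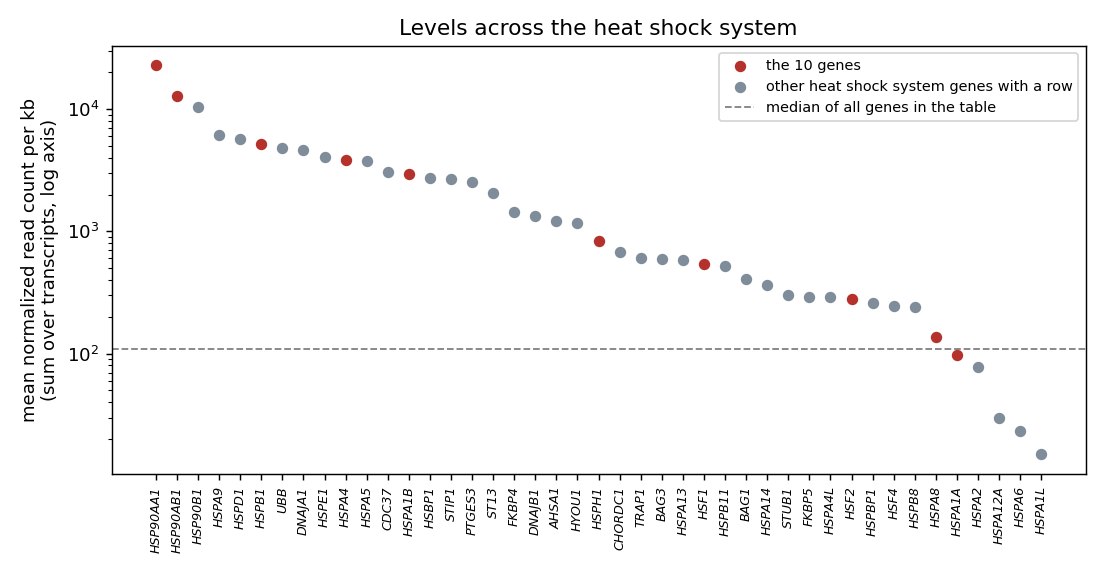
Mean normalized reads per kb (log axis), summed over listed transcripts, of the 10 genes (red) and of the 33 further heat shock system genes with a row (grey), in order of level. HSP90AA1 and HSP90AB1 lead at 22746 and 12797, and HSPA1A at 97.6 lies below the median of all genes, 108.

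The cell line was checked on marker genes. VIM and LGALS1, high in mesenchymal-like cells, had 10135 and 10596 per kb, while CD44 and S100A4 had 427 and 305. ERBB2 and EPCAM had 44.3 and 43.3, and ESR1, PGR and CDH1 had no row. PTPRC and HBB, which mark blood cells, had no row, and the endothelial gene PECAM1 had 4.08.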

How the data were processed

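From mRNA libraries read on a HiSeq instrument, the authors aligned reads with STAR (default parameters) to the transcripts of GENCODE release 24, estimated reads per transcript with eXpress and ran DESeq2. Versions are not given in the sources used here. The deposited signal is the authors' mean normalized read count. The fold change, p-value and q-value columns hold the authors' comparison and were not used. The lowest value listed is 7.34, and any filter behind it is not given in the sources used here. Rows were taken by symbol, divided by the length given in the table and summed per gene. For 41 of the 43 member transcripts a sequence was found by ID in GENCODE release 44 (hg38), 32 with the same length. Shared 50-mers were counted on the same strand. Members and lists were chosen with earlier results of these data known; every member is named, and of the further list the 5 highest and 5 lowest. Of that list 1 gene is not reported here, and the list's counts and median were computed without it. The measure of 50-mers in over 10 transcripts was added after the values were seen. Alternatives covered transcript type, length, leading transcript, a minimum of 20 reads and other stretch lengths. Protein identity was not computed, as no protein table was used. The computation was tested on simulated sequences. Python 3.11.15, numpy 2.4.6, pandas 2.3.3 and matplotlib 3.10.9 were used.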

Additional observations from a re-analysis of the deposited data

How the results depend on the processing

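All values rest on 1 mean per transcript, so leaving out a library could not be tried, and no test was run. No paired analysis was possible because the table has no values per library. With protein-coding transcripts alone 25 member transcripts remained of 43, and with at least 20 reads 36. The median member level of 1886 per kb became 1520 with protein-coding transcripts alone, 2038 with 200 bases taken off each length, 968 with the leading transcript alone and 1872 with at least 20 reads. The spread between these ways of counting was largest for HSPA8, 6.41 times, and smallest for HSPA1B, 1.09 times. The median share of the leading transcript, 56.8% of the reads over the 8 genes with several transcripts, was 56.7% per kb and 62.4% with protein-coding transcripts alone. The median share of 50-mers in other genes, 9.01%, was 25.6% for 25-base, 16.3% for 36-base and 1.10% for 100-base stretches, 0% against protein-coding genes alone and 9.01% on both strands. For HSPA1A the share stayed between 72.4% and 77.7% under these settings. Read length is not given in the sources used here, so none of the stretch lengths is known to be the closest.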

Other observations

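Over all 19621 genes with a protein-coding transcript in release 44, the share of 50-mers found in over 10 transcripts was set beside the level, as a description chosen after the HSPA8 values were seen. Where no 50-mer of the longest coding transcript had over 10 transcripts, 58.8% of 12825 genes had a row, with a median of 168 per kb. Where the share was over 0% to 25%, 72.8% of 4994 genes had a row, with a median of 129 per kb. In the range that holds HSPA8, a share over 25% to 50%, 69.4% of 798 genes had a row. Those with a row had a median of 109 per kb and quartiles of 32.4 and 278. Where no 50-mer had over 10 transcripts the quartiles were 50.3 and 425. The 135.8 of HSPA8 lay between the quartiles of every range, so its place does not tell the ranges apart. Where the share was over 50% to 75%, 68.2% of 509 genes had a row, with a median of 111 per kb. Where the share was over 75%, as for HSPB1, 72.1% of 495 genes had a row and the median was 159 per kb. These medians cover only genes with a row, and the part of repeated matches in the level of HSPA8 or HSPB1 was not tested. The shares count transcripts of release 44, some of which may be absent from the release the authors mapped to.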
